A study of Mus musculus with 15 samples.

Results

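Phlpp1 encodes a protein phosphatase, and the 53 fragments described here are all those listed with its promoter in a promoter-capture Hi-C table of 36353 pairs of a promoter and a fragment. Promoter-capture Hi-C joins DNA ends that lie close together in the nucleus and enriches the joined pairs that hold a chosen promoter. The fragments were selected by promoter name alone, but the gene itself was picked on its measured values, since its number of interactions differed widely between the Early and the Basal group. Those 2 groups are therefore described below without a test.

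The libraries came from hippocampal nuclei of mice, stained for the neuronal protein NeuN and for a fluorescent label and sorted. All mice carried ArcCreERT2 and a floxed-stop yellow fluorescent protein at R26R, with genotype given as +/+, so cells with an active Arc promoter at the time of 4-hydroxytamoxifen are marked. The drug was given 1 h before contextual fear conditioning. Mice were then collected after 1.5 to 2 h, or 5 days after conditioning, some of them after a new encounter with the cue. The labels also record 48 h in a dark room after the task. The 15 libraries fall into Basal (3 libraries) and Early, Late and Reactivated (4 libraries each). The labels state neither which group was collected when, nor how Basal mice were treated, nor whether marked or unmarked nuclei entered a library, and the treatment label reads no recall for all 15. Tissue of 10 to 12 mice was pooled for each condition and the libraries are called biological replicates, but whether they came from separate pools is not stated, so p-values measure the spread between libraries, which may be technical.

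PHLPP1 removes an activating phosphate from AKT kinases, and from protein kinase C and S6 kinase, and so dampens growth signalling. It is also known as SCOP, a protein that binds K-Ras and restrains Ras signalling in hippocampal neurons, where its breakdown by the protease calpain has been tied to long-term memory. In a capture experiment its promoter is the fixed end of each pair, and the listed fragments, cut by the enzyme HindIII, are the other ends.

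The promoter that anchors the map is shown to make its base composition visible. The following 250 bases lie directly upstream of the annotated start of Phlpp1 in RefSeq (build GRCm38.p6, chr1:106171619-106171868, + strand), with capitals marking each match to the GC box GGGCGG on either strand.

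Phlpp1: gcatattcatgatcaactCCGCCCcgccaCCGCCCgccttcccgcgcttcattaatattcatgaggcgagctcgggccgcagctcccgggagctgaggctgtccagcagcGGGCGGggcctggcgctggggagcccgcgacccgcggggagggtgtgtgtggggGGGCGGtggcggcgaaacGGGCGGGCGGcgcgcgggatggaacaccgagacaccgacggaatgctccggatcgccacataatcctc

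The window had 6 GC box matches, the last 2 of which overlap, and 32.7% of 32851 RefSeq promoter windows of this length had at least 1. Its bases were 70% G or C, against a median of 52.4% over those windows. It held 31 CG dinucleotides, against a median of 6. No match was found for the HindIII site AAGCTT (present in 6.22% of windows), the cAMP response element TGACGTCA (1.55%), the E-box CACGTG (6.02%) or the TATA box TATAAA (12.4%). The interaction scores use mm9 coordinates, so the promoter and the fragments were not placed on a common scale.

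Each value is the authors' interaction score of a library for a fragment, a whole number of 2 or more, with no entry where none was listed. An interaction was counted as called at a score of 5 or more. Libraries differed strongly in size, from 30 called interactions in Reactivated 1 and 248 in Reactivated 2 to 11658 in Reactivated 4. Their median score differed too, from 11 in Reactivated 2 and 13 in Basal 3 to 310 in Reactivated 4. Raw scores of different libraries are therefore not on a common scale. Within a group, libraries were joined to a library set where 40% or more of the smaller library's fragments were also in the larger. This gave 9 sets. Replicates 1 and 2 of Basal, Late and Reactivated formed a set in each of these groups, replicates 3 and 4 did so in Early, Late and Reactivated, and Basal 3, Early 1 and Early 2 stood alone. The sorted cell type could not be checked, since contacts and not expression were measured.

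The map of Phlpp1 had a crowded core and a thin scatter of distant fragments. All 53 fragments lay on chromosome 1, and only the promoter of the bZIP factor gene Crebzf had more listed fragments (163), while Cacna2d1 had as many and the median of 4429 promoters was 6. The fragment recorded in the most library sets, on chromosome 1 from 108063160 to 108067562, is used below as the reference for distances, because the position of the bait is not in the table used here. Of the 53 fragments, 45 lay within a window of 1.24 Mb from 107551846 to 108796101. The other 8 lay 15.3 to 98.4 Mb from the reference fragment. Joining fragments up to 100 kb apart gave 12 clusters, and 39 fragments fell into a single cluster of 528 kb from 107892103 to 108420411, which had a score in 14 libraries and in all 9 sets. Cacna2d1 and Atxn1 were the promoters with a larger such cluster (45 and 44 fragments) among the 301 promoters with at least 20 fragments. The Phlpp1 fragments were 186 to 11665 bp long, with a median of 2792 bp against 2939 bp over all listed fragments.

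**Figure D1:**
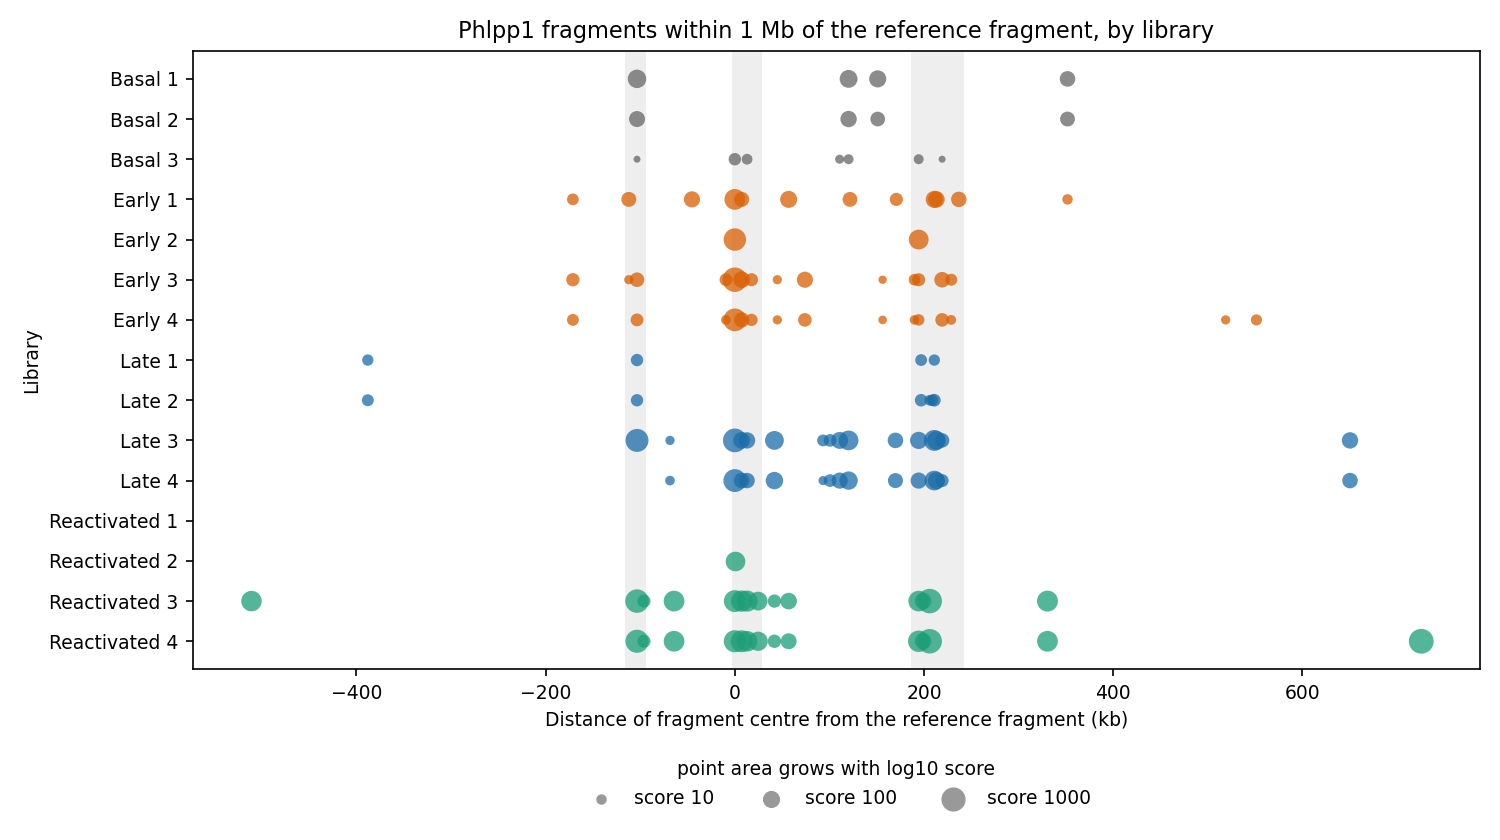
Phlpp1 fragments within 1 Mb of the reference fragment, with distance in kb on the x axis, a row for each library, colour for the group and point area growing with the log10 score. Grey bands mark the 3 stretches of 3 or more fragments at most 5 kb apart, at -115 to -95.1 kb, -2.20 to 27.3 kb and 187 to 241 kb, and points gather in them in libraries of all 4 groups.

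Inside the core, 3 stretches stood out when fragments up to 5 kb apart were joined, a distance chosen after the map was seen. The stretch at the reference fragment held 5 fragments from 108063160 to 108092661 and had a score in 10 libraries and 7 sets. An upstream stretch, lower in coordinate, held 3 fragments from 107950113 to 107970292, at -115 to -95.1 kb, with scores in 11 libraries and 7 sets. The densest stretch held 11 fragments over 54.1 kb from 108252271 to 108306356, between 187 and 241 kb from the reference, with scores in 11 libraries and 7 sets. The fragments of this stretch together covered 49366 bp, and the widest gap between them was 3762 bp. No other promoter of the 4429 had so long a run, but a promoter with more fragments can reach a longer one. The median was 1 over all promoters and 3 over the 301 with at least 20 fragments. Bcap29 and Rfx3 followed with runs of 10 fragments each, and Bcap29 had only 32 fragments in all and Rfx3 50. These ranks come with no test.

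The reference fragment, which lies in the first of these stretches, was chosen for the widest recurrence over sets. Its scores were 660, 1144, 2188 and 1276 in Early 1 to 4, 42 in Basal 3, 1725 and 1303 in Late 3 and 4, and 453, 945 and 1022 in Reactivated 2 to 4. It had no entry in Basal 1, Basal 2, Late 1, Late 2 and Reactivated 1. It was thus scored in all 4 Early libraries and in some libraries of each other group, and in 8 of its 10 libraries it carried the highest score of any Phlpp1 fragment. The next listed fragment, from 108071535 to 108073759, was scored in 7 libraries, with 99 in Early 1, 174 in Early 3, 107 in Early 4, 174 and 120 in Late 3 and 4, and 773 and 955 in Reactivated 3 and 4. It had no score in Basal. It was listed with the same scores for Pign, a gene of GPI anchor synthesis, so its scores cannot be assigned to Phlpp1 alone. Between these fragments lay 1 fragment, from 108067576 to 108071159, that was listed with Pign and not with Phlpp1, at 603 and 561 in Reactivated 3 and 4. The table does not mark the fragment that holds the Phlpp1 promoter, and it may lie in this gap, which was not tested. The high scores and wide recurrence of the reference fragment would then be those of a neighbour of the bait, and the Pign scores in the gap could be contacts with the Phlpp1 promoter itself. The fragment from 108073762 to 108082872 had scores in 5 libraries, of 24 in Basal 3, 154 and 115 in Late 3 and 4 and 741 and 599 in Reactivated 3 and 4, and none in Early.

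The large fragment of the upstream stretch, from 107956421 to 107967500, was the other fragment scored in 10 libraries. Its scores were 313, 139 and 6 in Basal 1 to 3, 87 and 48 in Early 3 and 4, 41, 41 and 1339 in Late 1 to 3, and 1601 and 1399 in Reactivated 3 and 4. It was the only Phlpp1 fragment with a score in every Basal library apart from the one from 108185365 to 108185870. That fragment had 258, 156 and 18 in Basal 1 to 3 and 465 and 298 in Late 3 and 4, and no score in Early or Reactivated. Late 3 and Late 4 shared 15 of their 16 fragments, and the large upstream fragment, at 1339 in Late 3 and without an entry in Late 4, was the exception.

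Within the densest stretch, different libraries scored different fragments. Basal 3 had 2 of its 11 fragments, Early 1 to 4 had 3, 1, 4 and 4, Late 1 to 4 had 2, 4, 4 and 4, and Reactivated 3 and 4 had 3 each. Basal 1, Basal 2, Reactivated 1 and Reactivated 2 had none. The fragment from 108258361 to 108261083 was shared by the most libraries, with 18 in Basal 3, 480, 52 and 31 in Early 2 to 4, 208 and 147 in Late 3 and 4 and 630 and 809 in Reactivated 3 and 4. It was scored in all 4 groups and 5 sets. The 2 fragments that follow it were scored in different library sets. The one that adjoins it in the digest (108261086 to 108263543) was scored in Late 1 and 2 and not in Late 3 and 4. The one after that (108263546 to 108265184) was scored in Reactivated 3 and 4. The fragment from 108268947 to 108273785 had 2239 and 2219 in Reactivated 3 and 4 and 23 in Late 2. The fragment from 108274798 to 108277714 had 29, 46, 686 and 464 in Late 1 to 4, 206 in Early 1 and no score in Basal or Reactivated. Scores in the stretch ran from 6 to 2239, with a median of 100.

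**Figure D2:**
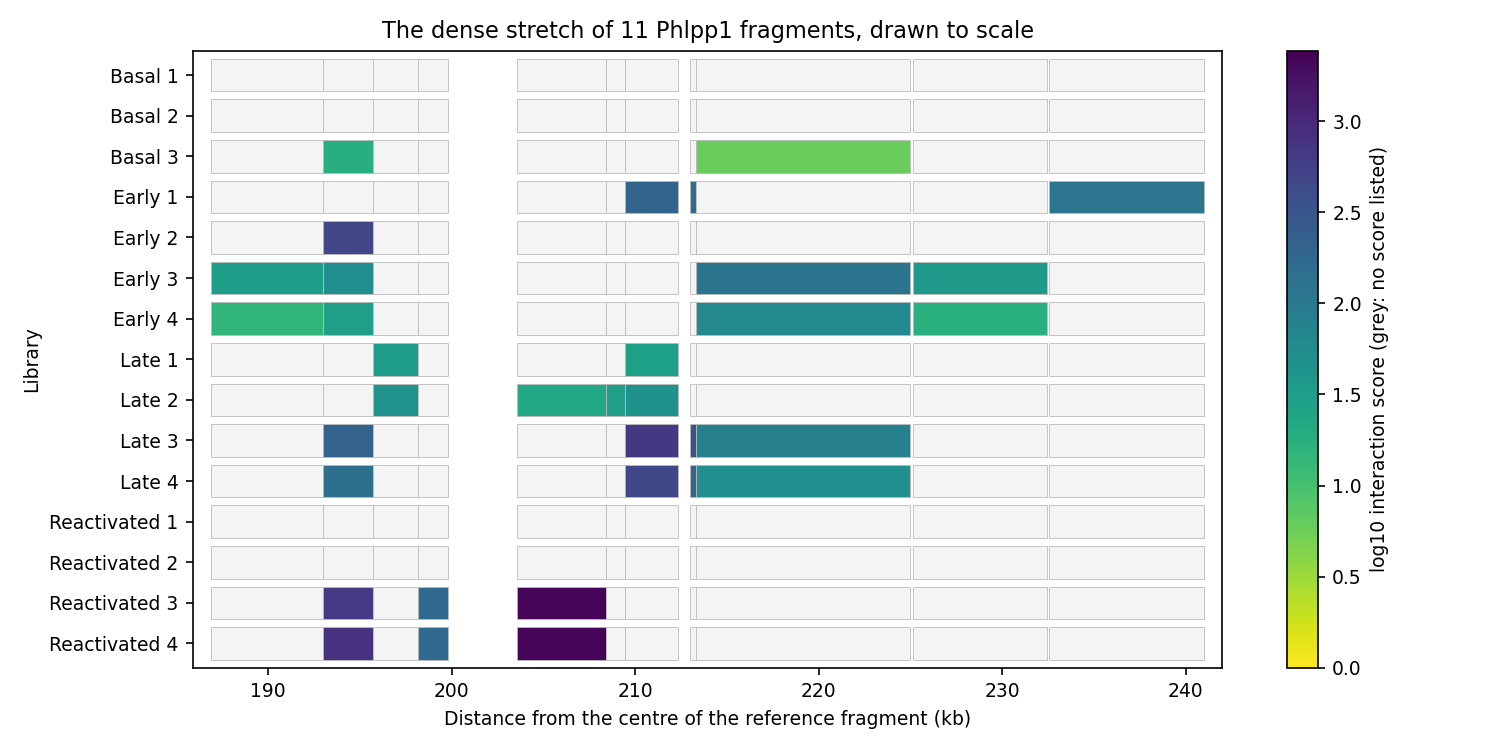
The 11 fragments of the densest stretch drawn to scale, with distance from the centre of the reference fragment in kb on the x axis, a row for each library and colour for the log10 interaction score; grey boxes have no score and white gaps hold no Phlpp1 fragment. Neighbouring boxes are filled in different libraries, and the box of the fragment from 108258361 to 108261083 is filled in 8 libraries.

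The other fragments of the core were mostly scored in a single library set, and neighbours in the digest were often scored in different sets. The 7 fragments scored in Reactivated alone included the highest Phlpp1 score of all, 2429 in Reactivated 4 for the fragment from 108786015 to 108796101, which had no entry in Reactivated 3. The fragment from 107998096 to 108004106 had 655 and 644 in Reactivated 3 and 4, while the adjoining one, from 107995530 to 107998093, had 14 and 16 in Late 3 and 4. At the far side of the densest stretch, the fragment from 108395238 to 108396521 had 693 and 649 in Reactivated 3 and 4. Over all its fragments, the median score of a library was 304 in Reactivated 3 and 310 in Reactivated 4. In Late 1 to 4 this median was 18, 19, 160 and 100. The 8 fragments scored in Late alone, from libraries on that lower scale, had scores from 13 to 158. Of these, 5 were scored in Late 3 and 4, 2 in Late 1 and 2 and 1 in Late 2, and none joined both Late sets. The fragment from 108105427 to 108109049 had 347 and 221 in Late 3 and 4 and 56 and 58 in Reactivated 3 and 4, and the one adjoining it, from 108109052 to 108111539, had 14 in each of Early 3 and 4. The fragment from 108413729 to 108420411, at the upper end of the large cluster, had 121 and 95 in Basal 1 and 2 and 21 in Early 1.

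The distant fragments were listed in Early libraries. All 8 fragments over 5 Mb away had a score in an Early library, and 1 of them, from 9632944 to 9633245, also had a score in Late 2. They were called 5 times in Early 1, 2 times in each of Early 2 and Early 4 and once in Late 2. No library of Basal or Reactivated, and not Early 3, had any. The choice of Phlpp1 on Early against Basal used these calls too, so their place in Early carries no weight as a trait of the gene. Basal 1 to 3 had only 4, 4 and 7 Phlpp1 calls in all, too few to show whether distant calls were rarer there. Scores of the distant fragments ran from 10 to 241, and 6 of the 8 were scored in a single library. The 2 lowest in coordinate were the one just named, scored 10 in Early 2 and 23 in Late 2 and listed also with Pigm, another gene of GPI anchor synthesis, and one from 15364305 to 15367096, scored 18 in Early 4. The 2 highest were scored in Early 1 alone, at 79 (132911788 to 132921178) and 173 (143406332 to 143415699). The fragment from 20061062 to 20064259 was the one distant fragment scored in more than 1 Early library, at 24 in Early 1 and 241 in Early 4. Among the other promoters with at least 20 fragments, calls over 5 Mb from the promoter's median position made up 15.8%, 19.5%, 4.86% and 16.6% of the calls in Early 1 to 4. In Basal 1 to 3 they made up 6.65%, 5.75% and 15.6%, with 16.5%, 17.9%, 3.87% and 2.47% in Late 1 to 4 and 41.7%, 52.4%, 4.92% and 5.80% in Reactivated 1 to 4. For the other promoters such calls were thus about as frequent in Basal 3 and in Late 1 and 2 as in Early 1 and Early 4. The high shares of Reactivated 1 and 2 rest on few calls, 5 of 12 and 43 of 82. Early 3, which had no distant Phlpp1 call, was the lowest of the 4 Early libraries also for the other promoters. Measured from its own median position, Phlpp1 had 15.1% of its fragments that far away, against a median of 11.1% over these promoters, and 89 of 301 had a larger share.

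The number of called interactions was highest in Early, as the choice of the gene fixes for Early against Basal. Basal 1 to 3 had 4, 4 and 7, a mean of 5 ± 1.73 (SD, n = 3). Early 1 to 4 had 17, 4, 14 and 17, a mean of 13 ± 6.16 (SD, n = 4). Early 2, a small library with 1664 called interactions in all, overlapped Basal, and the other 3 Early libraries lay above it. Without Early 2 the difference of 8 became 11, without Early 1 or Early 4 it was 6.67, and without the distant fragments it was 5.75. Late 1 to 4 had 4, 7, 16 and 15, a mean of 10.5 ± 5.92 (SD, n = 4). Late 1 and 2 lay within the range of Basal and Late 3 and 4 above it. Reactivated 1 to 4 had 0, 1, 14 and 14, a mean of 7.25 ± 7.80 (SD, n = 4).

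Across the 15 libraries the count of Phlpp1 followed the size of the library, with a Spearman rho of 0.824 between Phlpp1 calls and all calls. Per 10000 called interactions of a library, Phlpp1 had 8.80, 9.95 and 12.0 in Basal 1 to 3 and 24.8, 24.0, 26.5 and 25.9 in Early 1 to 4. On this scale Early lay above Basal without overlap, with means of 25.3 ± 1.10 (SD, n = 4) and 10.3 ± 1.62 (SD, n = 3), and Early 2 no longer stood apart. Early lay above Basal without overlap for 2.86% of 4403 promoters with a call, and Phlpp1 was chosen for this contrast, so its place among them carries no weight. Late 1 to 4 had 11.7, 18.7, 20.5 and 19.6, all below the 4 Early libraries, as for 3.29% of promoters. The Early libraries took part in the choice here too. Reactivated 3 and 4 had 12.6 and 12.0, next to the value of Basal 3. For a single library the counting error was wide: the exact 95% binomial interval ran from 14.5 to 39.7 in Early 1, from 6.55 to 61.4 in Early 2 and from 2.40 to 22.5 in Basal 1. Reactivated 1 had 0 of 30 calls, which allows a share of up to 10% by the limit of 3 counts, or 1157 per 10000 by the exact interval, and Reactivated 2 had 1 of 248. These 2 libraries were too small to show whether Phlpp1 differed there. The intervals cover counting error only.

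**Figure D3:**
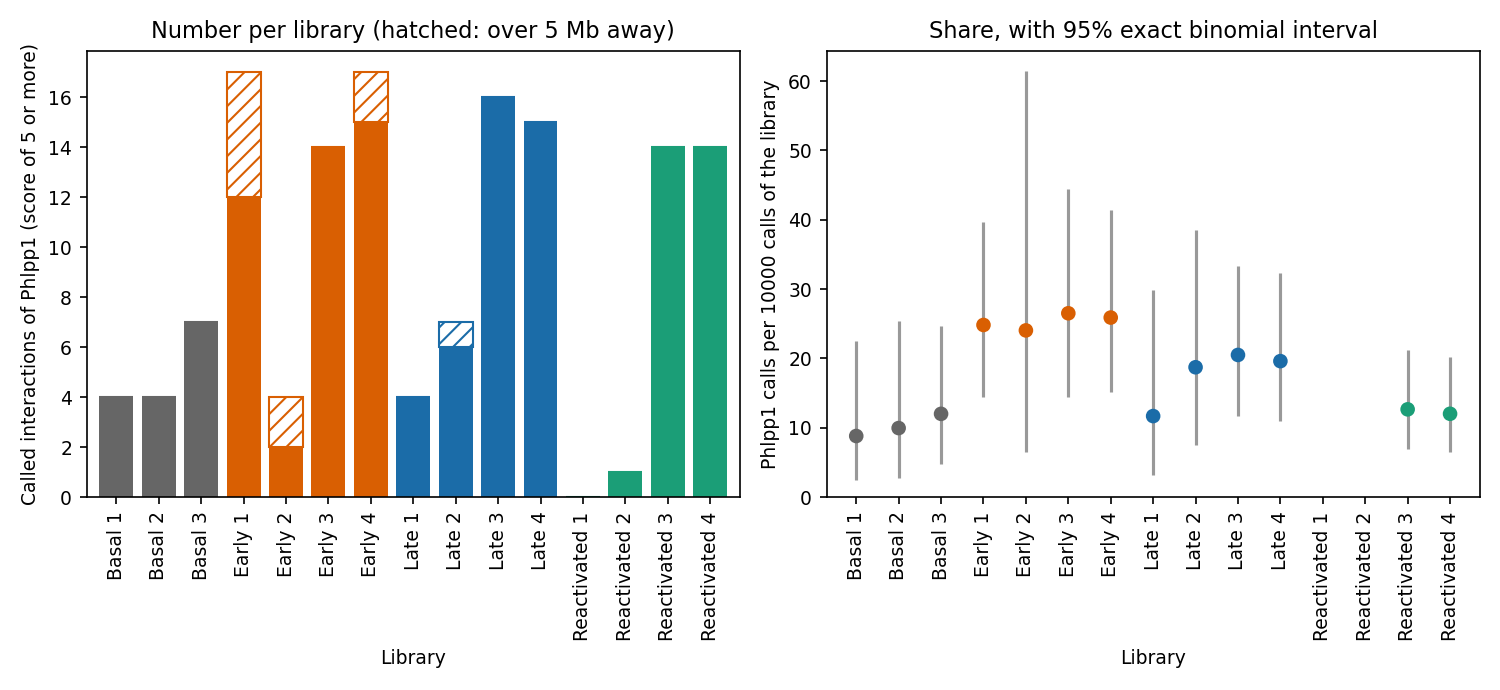
Called interactions of Phlpp1 in each library (left, bars from 0, hatched parts for fragments over 5 Mb away) and the same per 10000 calls of the library with exact 95% binomial intervals (right, without Reactivated 1 and 2, which had 30 and 248 calls). The 4 Early libraries lie between 24.0 and 26.5 per 10000 calls and the 3 Basal libraries between 8.80 and 12.0.

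Counted by group, the fragments with a score numbered 9 for Basal, 32 for Early, 21 for Late and 15 for Reactivated. Of the 32 Early fragments, 22 (68.8%) had a score in no other group, against 50.8% over all listings with an Early score. For Basal this was 1 of 9 (11.1%, against 32.2%), for Late 8 of 21 (38.1%, against 49.9%) and for Reactivated 7 of 15 (46.7%, against 50.4%). Since Phlpp1 was chosen on Early against Basal, its Early and Basal shares carry no weight as traits of the gene. The Basal fragment, from 108213631 to 108219199, had 200 and 90 in Basal 1 and 2. Of the 22 fragments scored in Early alone, 15 lay in the core window and 7 were distant. They were largely fragments of single library sets: 8 were scored in Early 1 alone and 7 in Early 3 and 4 alone, and 3 of the 22 recurred in more than 1 set. One of these 3, from 107892103 to 107896187, had 33, 56 and 35 in Early 1, 3 and 4. No Phlpp1 fragment was scored in every library of a group and in no other group. The reference fragment, the large upstream fragment and the fragment from 108258361 to 108261083 had a score in each of the 4 groups, 5.66% of the Phlpp1 fragments against 1.60% of all listings. Among the 301 promoters with at least 20 fragments, Smox alone had more such fragments, and 5 others had as many. Of these, Dusp23, Enah, Sort1 and Ywhab had only 21, 22, 20 and 23 fragments in all.

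Recurrence of single fragments was near that of other promoters. Of the 53 fragments, 15 were listed in 1 library and 23 in 2, and none in more than 10. In sets, 35 (66.0%) were listed in 1 set and 18 (34.0%) in 2 or more, against 65.6% and 34.4% of all listings. Without Early 1 the 18 became 12. At the upper end, 1 fragment each was listed in 4, 5, 6 and 7 sets. Of 138 Phlpp1 scores in all, the median was 113.5 and the lowest were 2 scores of 6, both in Basal 3, followed by 10, so that none fell under the threshold of a call. The median Phlpp1 score of a library lay above the median of all its fragments in 10 of 14 libraries and below it in Basal 1, Basal 2, Early 3 and Early 4.

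**Figure D4:**
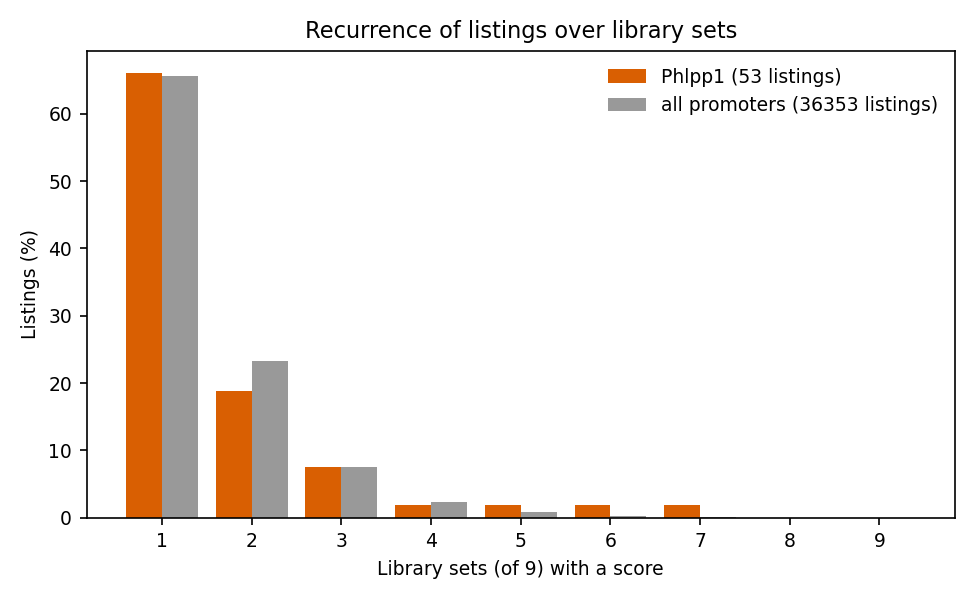
Share of listings (y axis, percent) by the number of library sets, of 9, in which they had a score (x axis), for the 53 Phlpp1 listings and for all 36353. A single set holds 66.0% of the Phlpp1 listings and 65.6% of all.

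Libraries of a set shared most of their Phlpp1 fragments. Basal 1 and 2 shared all 4, Early 3 and 4 shared 13 of 14 and 17, Late 1 and 2 shared 4 of 4 and 7, and Reactivated 3 and 4 shared 13 of 14 each. Over the 5 sets with fragments in both libraries, those shared made up 57.1% to 100% of those in either. In the 13 other pairs within a group with fragments in both libraries, the share was 4.76% to 22.2%, with a median of 10.5%, and in 73 pairs from different groups it was 0% to 43.75%, with a median of 10%. The top of that range was Basal 3 with Late 3: all 7 fragments of Basal 3 were among the 16 of Late 3, and 6 of them among the 15 of Late 4. These libraries also shared the most over the whole table of any pair from different groups, 29.7% of the fragments of Basal 3. Basal 3 shared 2 of its fragments with Basal 1 and 2.

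**Figure D5:**
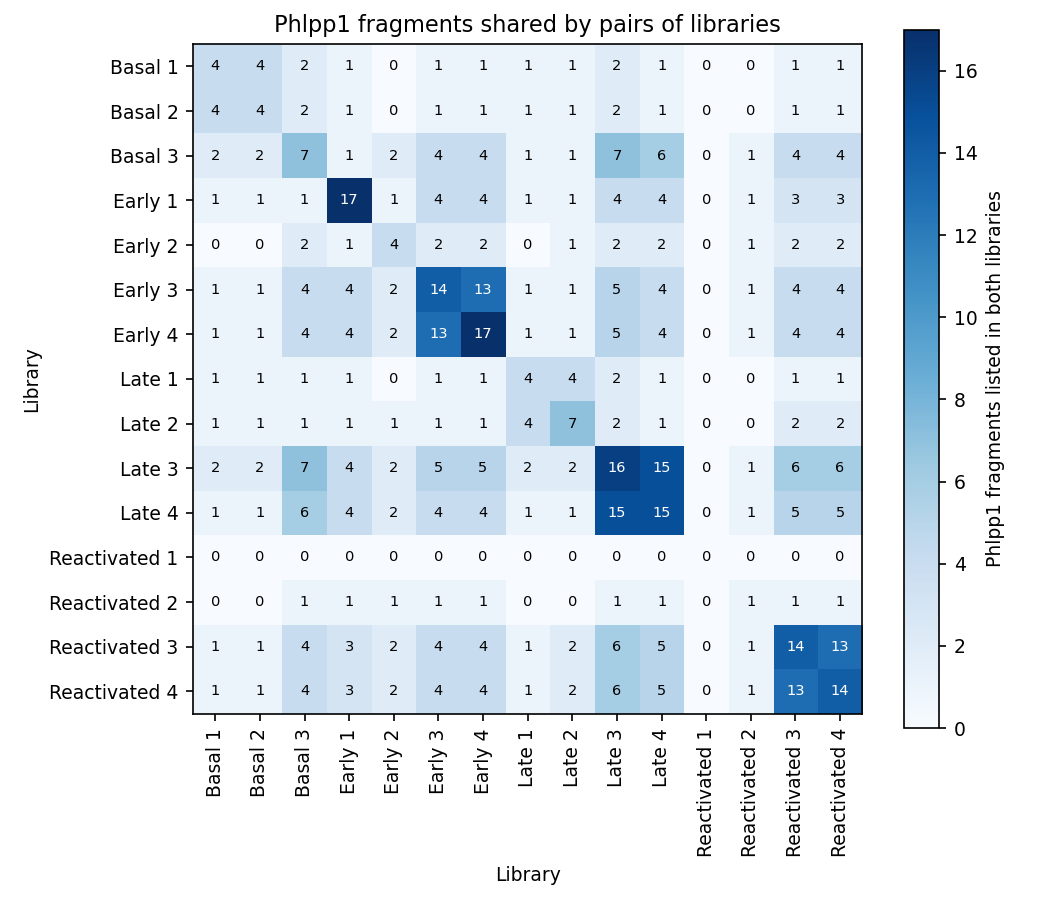
Number of Phlpp1 fragments listed in both libraries of each pair, with libraries on both axes and the number of fragments of a library on the diagonal. Dark blocks join Early 3 with 4 (13), Late 3 with 4 (15) and Reactivated 3 with 4 (13), and Basal 3 shares 7 with Late 3.

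Reactivated against Late is the contrast whose libraries played no part in the choice of Phlpp1. Phlpp1 had 7.25 called interactions in Reactivated and 10.5 in Late, which is -3.25 (SE 7.64) for Reactivated minus Late. It did not pass the test, with a limma adjusted p of 0.932 over 4403 promoters, of which 0% passed and 634 had an unadjusted p under 0.05. An exact two-sided permutation test over the 8 libraries gave p = 0.514, where the smallest possible is 0.0286. That test took the 8 libraries as independent, which libraries of a set are not, so its smallest possible p is too low. The mean asinh score over the 53 fragments was 0.934 ± 1.01 in Reactivated and 1.05 ± 0.727 in Late (SD, n = 4 each). That difference was -0.12 (SE 0.632; limma adjusted p = 0.988), in a test that 0.0677% of 4429 promoters passed. Of the single fragments 13 were higher and 16 lower in Reactivated, 24 had no score in either group, and 0 of 53 passed by limma, as 0% of 36353 listings did. By limma 12 of the 53 had an unadjusted p under 0.05, near the 26.2% of all listings that did. The limma fits too took libraries of a set as independent. With each library set as its mean, 0 of the 53 and 4 of 36353 listings had a limma unadjusted p under 0.05. The lowest p was that of the fragment from 108274798 to 108277714, scored in every Late and no Reactivated library, where the difference on the asinh scale was -5.66 (SE 2.03; limma adjusted p = 0.141). For the reference fragment it was 1.49 (SE 3.14; limma adjusted p = 1). Without Early 1, the lowest limma adjusted p among the Phlpp1 fragments was 0.00143. There 1 of 53 passed, a larger share than the 0.171% of all listings (62 of 36353), but one that rests on 1 fragment. Without Reactivated 1 alone, or Reactivated 2 alone, 4 Phlpp1 fragments passed in each case, where 13.5% and 13.6% of all listings did. Without both, which left a single set in that group, the difference in called interactions was 3.5 and 8 Phlpp1 fragments passed, where 25.1% of all listings did.

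The genes around Phlpp1 shared its neighbourhood in the map. In RefSeq order, Pign, Relch, Tnfrsf11a and Zcchc2 precede Phlpp1, and Bcl2, Kdsr and Vps4b follow it. Of these, Pign, Tnfrsf11a, which encodes the receptor RANK, and Kdsr, a gene of sphingolipid synthesis, had promoters in the table. In the 1.24 Mb window Tnfrsf11a had 24 fragments, Pign 9 and Kdsr 8. None of their fragments lay in the densest Phlpp1 stretch. Tnfrsf11a had 4, 3 and 10 called interactions in Basal 1 to 3 and 8, 3, 7 and 9 in Early 1 to 4, with overlapping groups. Pign had 3, 2 and 3 in Basal and 5, 4, 2 and 2 in Early, also with overlap. Kdsr had 0 in each Basal library, 1, 0, 0 and 1 in Early, 2, 1, 4 and 3 in Late, and 0, 0, 3 and 3 in Reactivated. A Kdsr fragment from 108714982 to 108716490 was listed with Phlpp1 too, at 158 and 119 in Late 3 and 4.

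The promoters most like Phlpp1 in called interactions over the 15 libraries were Gcc2 (Spearman rho 0.956), a golgin gene, Scarna2 (0.907), a small Cajal body RNA gene, Dok5 (0.902), an adaptor protein gene, Rbfa (0.900), a mitochondrial ribosome factor gene, and Slc35b3 (0.897), a Golgi transporter gene. Gcc2 had 4, 4 and 7 calls in Basal 1 to 3, as Phlpp1 did, and 19, 6, 7 and 13 in Early. All points share the size of their library: the median rho over 300 promoters was 0.702, and per 10000 calls the rho of these 5 promoters fell to between 0.222 and 0.472. On that scale other promoters were more like Phlpp1, among them Cgn (0.727), Mcm6 (0.693) and Ranbp2 (0.677). Each of these had 1 call in the very small library Reactivated 2, as Phlpp1 did. A crowded core was also found for other promoters with many fragments. Cacna2d1 and Atxn1, with 53 and 50 fragments, had 45 and 44 in their largest 100 kb cluster. Both had 4 distant fragments, and their longest runs were 6 and 3. Nr3c2, the mineralocorticoid receptor gene, had 47 fragments with 38 in its largest 100 kb cluster, 1 distant fragment and a longest run of 5. Crebzf had another shape, with 6 of its 163 in its largest cluster, 152 distant fragments and a longest run of 3.

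Of 53 genes of AKT, protein kinase C, S6 kinase and Ras signalling, 23 had a promoter in the table. Members with many fragments were the PI3-kinase subunit gene Pik3r1 (17), the lipid phosphatase genes Inpp4b (15) and Inpp4a (13) and the transcription factor gene Foxo3 (12). None of the 23 passed by limma on called interactions in any of the 6 comparisons between groups, higher or lower, as 0% of 4403 promoters did in each. An unadjusted p under 0.05 was found for 3 of the 23 in Early against Basal (4.57% of all promoters), 1 in Late against Basal (8.47%) and 5 in Reactivated against Basal (8.88%). It was found for 2 in Late against Early (9.54%), 4 in Reactivated against Early (10.7%) and 3 in Reactivated against Late (14.4%). In Early against Basal 12 were higher and 9 lower, with a median difference of 0.0833 against 0 over all promoters. Inpp4b had the largest gain, from 0.667 ± 0.577 in Basal (SD, n = 3) to 2.75 ± 1.71 in Early (SD, n = 4). In Reactivated against Late 9 were higher and 12 lower, with a median of -0.25 against 0. Inpp4a had 8 in each of Reactivated 3 and 4, 0 in Reactivated 1 and 2, and 0, 0, 3 and 3 in Late, a difference of 2.5 with a limma adjusted p of 0.329. Rps6kb1, which encodes an S6 kinase and is named here for the lowest adjusted p of the 23, went the other way, with 3, 1, 2 and 1 in Late 1 to 4 and 0 in each Reactivated library, a difference of -1.75 with a limma adjusted p of 0.123.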

How the data were processed

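The deposited table holds the authors' interaction score for 36353 pairs of a promoter and a HindIII fragment in 15 libraries, per the file headers, on build mm9, per the submitters' processing notes. The sources used here do not state how the score was made. All entries are whole numbers, the lowest being 2, and could be read numbers, so they can carry depth. Groups were taken from the sample titles, since the day of collection in the treatment labels only counts up from sample to sample. Per the labels, 10000 nuclei per condition were used with 10000 baits.

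A missing score was set to 0. Fits used limma 3.58.1 (R 4.3.3, robust, with variance trend) on asinh(score), on its mean per promoter and on called interactions per promoter, with all 15 libraries in a single fit and Benjamini-Hochberg adjustment at 0.05. Where changes were added to simulated data for Reactivated against Late, limma recovered 200 of 200 listings (of 36353) at a shift of 8, 0 of 200 promoter means (of 4429) at a shift of 3 and 200 at 6, and 199 of 200 promoters (of 4403) at 12 calls. The added changes were nearly equal in all Reactivated libraries, with Late set to 0, whereas the Phlpp1 values differed widely within both groups. The recovery therefore does not carry over to Phlpp1. A listing, promoter mean or number of calls that did not pass is no evidence of equality. Other values and figures used matplotlib 3.10.9, scipy 1.17.1, numpy 2.4.6 and pandas 2.3.3 under Python 3.11.15. Of 4429 promoter names, 4280 matched a RefSeq symbol, Phlpp1 among them. The gene, its groups and the signalling list were chosen with earlier results of these data known. Named fragments were those in the most libraries, with the highest scores and at the ends of the map, and named promoters were neighbours, the 5 with the highest rho among promoters with at least 20 fragments, and the 6 list members with the most fragments, of which 2 are not reported here. Other fragments, and the gap of 5 kb, were picked after their values were seen. Alternatives covered the scale, trend, filters, normalization, calling score, library sets, clustering gap and each library left out.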

Additional observations from a re-analysis of the deposited data

How the results depend on the processing

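The Early minus Basal difference in Phlpp1 calls stayed between 6.67 and 11 with each library of the 2 groups left out, and the Late minus Basal difference between 3.67 and 7.67. Both kept their direction at other calling scores, per 10000 calls, with set means and within 5 Mb. Phlpp1 was chosen on Early against Basal, so the Early minus Basal direction was largely fixed by that choice. The Basal libraries took part in it also for Late minus Basal, so these ranges describe the values and support neither difference.

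For Reactivated against Late, the number of Phlpp1 listings past the threshold was 0 in the reported fit, 0 to 4 with 1 library left out and 8 without Reactivated 1 and 2. The difference in mean asinh score ran from -0.414 to 0.191 with 1 library left out, being positive without Late 3 (0.127), Late 4 (0.0451), Reactivated 1 (0.191) or Reactivated 2 (0.149), and was 0.75 without both thin libraries. The difference in calls ran from -5.5 to -0.833 with 1 library left out and was 1 at a calling score of 50 and 3.5 without both thin libraries. The cause was not tested. With 30 and 248 calls, Reactivated 1 and 2 limit what these values can show.

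The 12 clusters became 5 with fragments of 2 or more libraries and 32 at a gap of 5 kb, where fewer fragments or a shorter reach are built in. The 18 fragments in 2 or more sets became 11 at a score of 50, 38 with every library on its own, and 12 to 18 with 1 library left out.

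Same-numbered libraries of different groups did not vary together (median correlation -0.00191 over 21 pairs). With a replicate block, Phlpp1 listings past the threshold numbered 0, and the differences stayed at -0.12 and -3.25, with limma adjusted p of 0.955 and 0.772.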
